A study of Mus musculus with 27 samples.

Results

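The 8 genes described here are Nlrp3, Aim2, Pycard, Casp1, Casp4, Gsdmd, Ninj1 and Il18, which encode parts of the inflammasome and gasdermin pathway. They were chosen by gene name, as a pathway on which disulfiram (DSF), a blocker of gasdermin D, is known to act, and all 8 were found among the 54532 genes of the count tables. Splenic B cells of WT C57BL6 mice were cultured for 3 h and their mRNA was sequenced. In experiment 1 there were 5 groups of 4 libraries each, namely no stimulus, LPS with vehicle (LPS), LPS with 1 µM DSF (LPS+DSF), IL-4+anti-CD40 with vehicle (IL-4+anti-CD40), and IL-4+anti-CD40 with 1 µM DSF (IL-4+anti-CD40+DSF). The vehicle was DMSO by the methods of the study, whose name for the unstimulated group also gives DMSO. Experiment 2 had 7 libraries, 1 per condition, with the same 5 conditions and, in addition, each stimulus together with 1 µM ibrutinib, an inhibitor of Bruton's tyrosine kinase. All groups shared the strain, genotype and culture time, and the labels do not say whether libraries of a group came from separate mice, so the p-values measure only the spread between these libraries.

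Inflammasomes are protein complexes that assemble in the cytosol when a sensor such as NLRP3 or AIM2 meets a danger signal. The adaptor ASC, encoded by Pycard, then joins the sensor to caspase-1, which cuts pro-IL-18, pro-IL-1β and gasdermin D, while caspase-11, encoded by Casp4, is activated by cytosolic LPS and also cuts gasdermin D. Fragments of gasdermin D form pores in the plasma membrane, and NINJ1 completes the rupture of the dying cell. The pathway is best known from macrophages, and the measurements here are of mRNA, which shows neither cleavage nor pore formation.

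Total counts were between 17804851 and 23632992 per library in experiment 1 and between 16049295 and 24619776 in experiment 2. The 4 unstimulated libraries fell apart into replicates 1 and 2 against replicates 3 and 4. Over 15575 genes, log2 CPM correlated at 0.993 and 0.992 within these pairs and at 0.963 to 0.964 between them, and 14% of genes differed by 2-fold or more between the pairs, compared with 1.66% to 4.74% in the other groups. All 9 B cell markers were at a mean of 1 FPKM or more (fragments per kilobase of transcript, scaled to depth) in every group. The summed FPKM of 14 macrophage and monocyte markers was 350 to 464 in unstimulated libraries and 103 to 119 with LPS, 104 to 111 with LPS+DSF, 104 to 120 with IL-4+anti-CD40 and 136 to 170 with IL-4+anti-CD40+DSF, while T cell and NK cell markers summed to between 1.03 and 11.0, dendritic cell markers to between 9.04 and 19.6 and neutrophil markers to between 15.95 and 59.7 in all libraries. No macrophage or dendritic cell marker was at 0 counts in any group, and of the neutrophil and NK markers Ly6g was at 0 with IL-4+anti-CD40+DSF and Ncr1 was at 0 with LPS. The macrophage markers did not move together between the unstimulated pairs. Cd14, the LPS co-receptor, was at 19.1 and 19.8 FPKM in replicates 1 and 2 and at 0.872 and 1.12 in replicates 3 and 4, whereas lysozyme Lyz2 was at 277 and 268 FPKM and at 391 and 406. Their part in the levels below was not tested. In such bulk samples, fewer cells of a type and less RNA per cell cannot be told apart.

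The levels of the 8 genes differed widely in scale. Among unstimulated B cells, Casp1 had the highest mean level, 30.2 FPKM ± 2.36 (SD, n = 4), followed by Gsdmd at 25.8 ± 4.89, Aim2 at 22.2 ± 1.5 and Ninj1 at 19.1 ± 14. Casp4 was at 8.64 FPKM ± 2.33, Pycard at 4.24 ± 0.868, Il18 at 3.41 ± 1.48 and Nlrp3 at 1.26 ± 0.632. The transcripts of the executing caspase and of gasdermin D were therefore more abundant per length than those of the NLRP3 sensor and of the adaptor in resting B cells. With LPS and DSF, Ninj1 (67.5 FPKM), Casp4 (59.1) and Casp1 (52.7) had the highest FPKM. This order depends on the scaling by gene length. By mean counts Casp4 (3759) and Aim2 (2589) were above Ninj1 (1820) and Casp1 (1355).

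**Figure D1:**
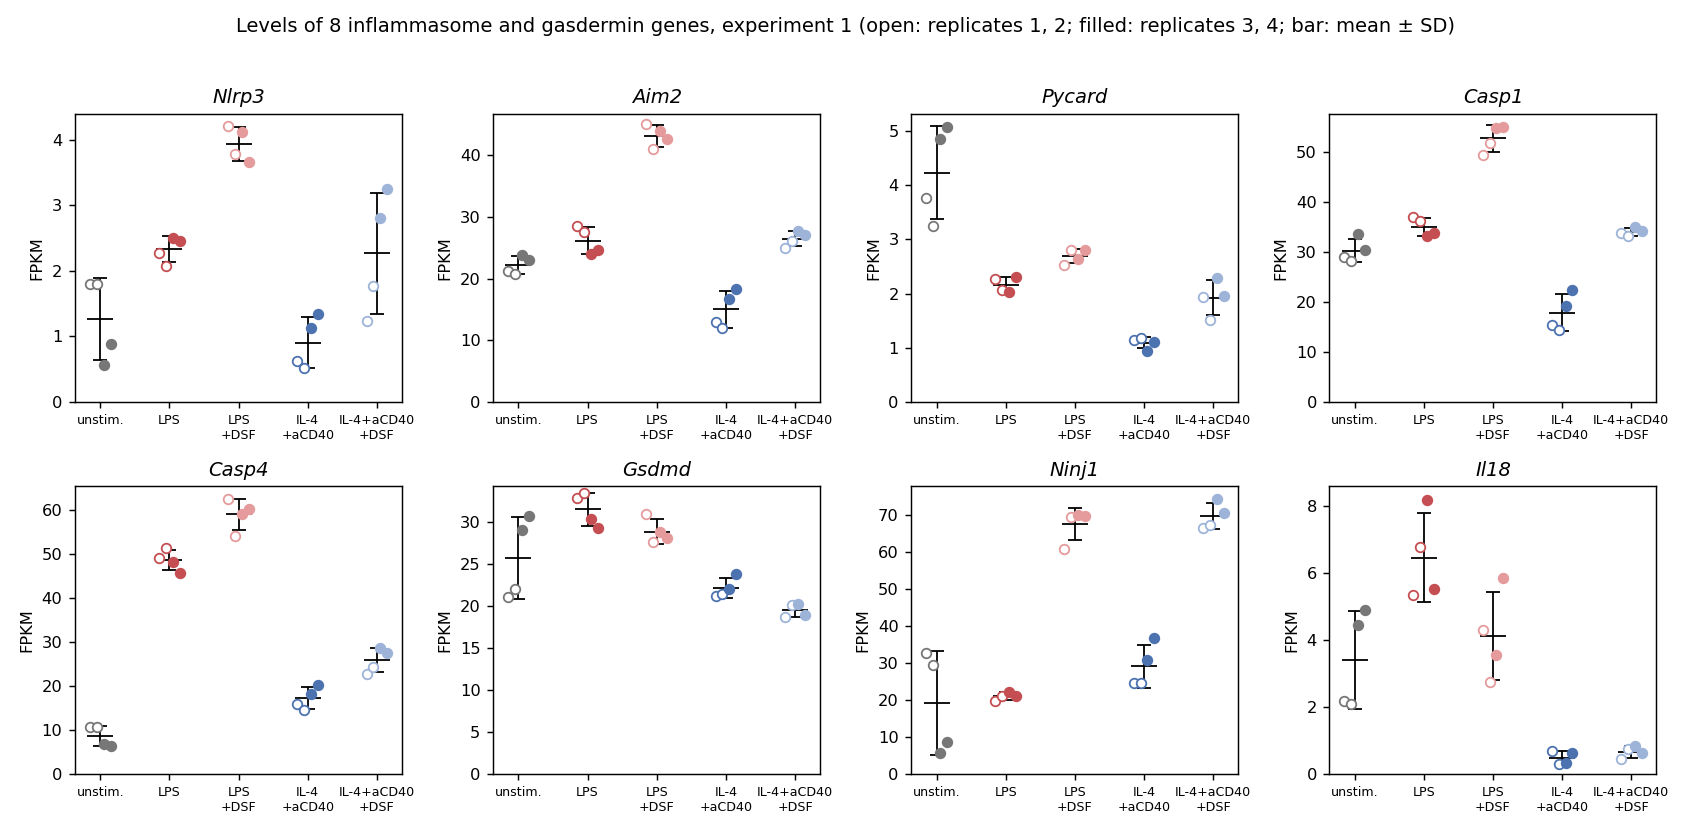
FPKM of the 8 genes (y axis, from 0) in each library of experiment 1, by group (x axis). Open points are replicates 1 and 2, filled points replicates 3 and 4, and bars give the mean ± SD of 4 libraries. Casp4 separates all 5 groups, Ninj1 is highest in both groups with DSF, and the unstimulated libraries split into pairs, most widely for Ninj1 (32.7 and 29.5 against 5.70 and 8.51 FPKM).

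LPS, a ligand of Toll-like receptor 4, was compared with no stimulus. It raised Casp4, Nlrp3, Il18, Aim2 and Casp1 and lowered Pycard, whereas Gsdmd and Ninj1 did not pass the quasi-likelihood test of edgeR at an adjusted p of 0.05. Thus 5 of the 8 genes were called higher and 1 lower, where 29.6% and 33.3% of all 14477 genes tested were called higher and lower. On normalised counts 4 of the 8 lay wholly above and 1 wholly below the unstimulated libraries, against 29.6% and 31.3% of all genes. The 8 genes had a median log2 fold change of 0.28, and all genes had one of -0.05. The calls of Casp4 and Pycard held under all alternatives run. With total counts in place of TMM scaling, which moved the median gene from -0.05 to -0.27, Casp4 was the 1 gene of the 8 still called higher, and leaving out LPS replicate 1, 2 or 3 left 2, 1 and 3 called higher.

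IL-4+anti-CD40, a stimulus that mimics T cell help, was compared with no stimulus in the same way. Casp4 rose, but Il18, Pycard, Casp1 and Aim2 fell, and Gsdmd, Nlrp3 and Ninj1 did not pass the test. These were 1 gene called higher and 4 called lower of the 8, none of which overlapped between the groups, where 30.4% and 32.1% of 14433 genes were called and 29.7% and 30.3% did not overlap. Over the 8 genes the log2 fold changes had a median of -0.51, over all genes of -0.04. When both stimuli were compared directly, 7 of the 8 genes were higher with LPS and 1, Ninj1, was lower, against 22.3% and 17.3% of 14078 genes. All 8 separated the stimuli without overlap, 7 above and 1 below, as did 22.3% and 17.1% of all genes. The largest of these differences were those of Il18 (log2 fold change 3.83, SE 0.27, adjusted p = 3.2e-07 by edgeR), Casp4 (1.54) and Nlrp3 (1.42). The difference of Ninj1 was lost when all 20 libraries shared one estimate of the spread (log2 fold change -0.43, adjusted p = 0.385 by edgeR), when replicates 1 and 2 alone stood for IL-4+anti-CD40 (-0.16, adjusted p = 0.0687) and when LPS replicate 1 was left out (-0.39, adjusted p = 0.0548). In experiment 2, with 1 library per condition, Ninj1 was instead higher with LPS (47.36 against 40.37 FPKM). Gsdmd was at 21.06 FPKM with LPS and 21.49 FPKM with IL-4+anti-CD40 there. The other genes were higher with LPS there too, such as Casp4 (26.93 against 21.48 FPKM), Casp1 (23.07 against 20.82 FPKM) and Il18 (34 against 21 counts).

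DSF raised 6 of the 8 genes under each stimulus, the same 6 in both, namely Nlrp3, Casp1, Casp4, Pycard, Ninj1 and Aim2. Il18 fell with DSF under LPS and Gsdmd fell with it under IL-4+anti-CD40. Under LPS, 35.1% of 14154 genes were called higher and 36% lower, and under IL-4+anti-CD40 the shares were 30.1% and 31.6% of 14275 genes. Of the 8 genes, 6 lay wholly above and none wholly below the LPS libraries (31.3% and 33.1% of all genes), while 5 lay above and 1 below the IL-4+anti-CD40 libraries (27.6% and 29.7%). Their median log2 fold changes were 0.47 and 0.80, and those of all genes 0.00 and -0.01. Scaling by total counts moved the median gene to -0.21 and -0.16, and there the rises of Casp4 and Pycard under LPS no longer passed the test (log2 fold changes of 0.091 and 0.13). Neither did these, the rise of Nlrp3 and the fall of Il18 under LPS when all 20 libraries shared one estimate of the spread (adjusted p of 0.0508 to 0.0857, edgeR), nor the fall of Gsdmd under IL-4+anti-CD40 (adjusted p = 0.249, edgeR). Markers of other cells moved with DSF as well. The summed macrophage and monocyte markers were higher with DSF under IL-4+anti-CD40 without overlap, as given above, and among them Cd14 went from a mean of 4.48 to 13.1 FPKM and the integrin Itgam from 0.677 to 3.25 FPKM. Ccr2 in contrast went from 0.906 to 0.4355 FPKM. Under LPS, where the summed macrophage and monocyte markers overlapped, members of the list went both ways. Itgam went from 1.29 to 4.23 FPKM and Cd68 from 12.6 to 17.2 FPKM. Lyz2 went from 56.5 to 52.5 FPKM, Csf1r from 2.95 to 2.48 FPKM and Cd14 from 24.0 to 22.0 FPKM. Adgre1, Fcgr1 and Ly6c2 were lower as well. The summed neutrophil, dendritic cell and T cell markers were higher with DSF under both stimuli, also without overlap (dendritic cell markers 10.1 to 10.6 against 15.3 to 17.0 FPKM under LPS). Single markers went both ways. In the T cell list under LPS, Cd5 rose from 1.015 to 4.42 FPKM. Cd3d, Cd3e, Cd3g, Cd4 and Cd8a fell, from low means of at most 0.257 FPKM with LPS and vehicle. In the dendritic cell list Itgax rose under both stimuli, while Flt3, Clec9a and Siglech fell. The summed B cell markers were lower (1879 to 1921 against 1474 to 1565 FPKM under LPS). Blk however rose from 81.9 to 198 FPKM under LPS and from 89.5 to 226 FPKM under IL-4+anti-CD40, where Cd79a and Ms4a1 also rose. The part of these markers in the changes of the 8 genes with DSF was not tested.

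**Figure D2:**
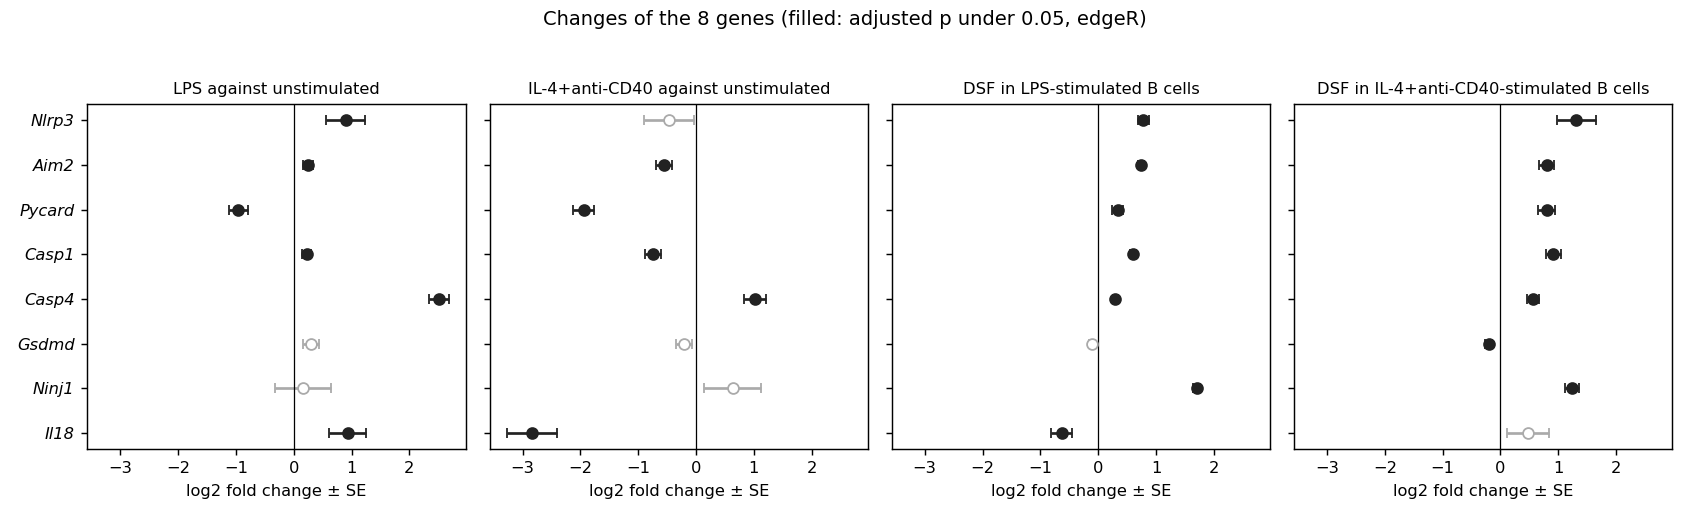
Log2 fold change ± SE (x axis) of the 8 genes (y axis) in 4 comparisons of 4 against 4 libraries, from edgeR; filled points passed an adjusted p of 0.05. With DSF most points lie to the right of 0 under both stimuli, led by Ninj1 at 1.70 with LPS and by Nlrp3 at 1.32 with IL-4+anti-CD40.

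Nlrp3 (ENSMUSG00000032691, chromosome 11, 59541568 to 59566956, plus strand, GRCm38) encodes the sensor that responds to potassium efflux and membrane damage. Its level in unstimulated replicates 1 to 4 was 1.80, 1.79, 0.567 and 0.886 FPKM, and with LPS it was 2.27, 2.08, 2.50 and 2.46 FPKM. The LPS libraries all lay above the unstimulated ones (log2 fold change 0.90, SE 0.33, adjusted p = 0.0401, edgeR), but leaving out any 1 of the LPS libraries or unstimulated replicate 4 lost the call (adjusted p of 0.0614 to 0.0897). With LPS and DSF the level was 4.20, 3.78, 4.11 and 3.65 FPKM. Every library with DSF was above every library with LPS and vehicle, by 0.78 on the log2 scale (SE 0.093, adjusted p = 5.16e-08, edgeR). With IL-4+anti-CD40 Nlrp3 was at 0.623, 0.516, 1.13 and 1.34 FPKM, and with DSF in addition it was at 1.24, 1.76, 2.81 and 3.25 FPKM. Here replicates 3 and 4 were the higher pair in both groups and the groups overlapped, although the rise passed the test (log2 fold change 1.32, SE 0.35, adjusted p = 0.00602, edgeR). The monocyte marker Cd14 had the same higher pair in the same libraries, at 2.32, 2.665, 4.69 and 8.25 FPKM with vehicle and 7.28, 10.04, 17.9 and 17.3 FPKM with DSF. Other markers of its list had replicates 1 and 2 as the higher pair. Lyz2 was at 81.8, 80.9, 65.1 and 68.2 FPKM with vehicle and at 116, 98.7, 89.3 and 77.7 FPKM with DSF. Csf1r and Adgre1 had that same order of pairs in both groups. The part of these markers in the level of Nlrp3 was not tested. In the order of its group means, LPS+DSF came first, and LPS, IL-4+anti-CD40+DSF, unstimulated and IL-4+anti-CD40 followed. Only the step from LPS+DSF to LPS passed the test among these neighbours.

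Aim2 (ENSMUSG00000037860, chromosome 1, 173350879 to 173466040, plus strand) encodes a sensor of double-stranded DNA in the cytosol. It spans Cadm3 on the opposite strand, which had 254 counts over the 20 libraries against 37844 for Aim2. In unstimulated B cells Aim2 was at 21.2, 20.7, 23.9 and 23.0 FPKM, with LPS at 28.6, 27.5, 24.0 and 24.6 FPKM, and with IL-4+anti-CD40 at 12.9, 12.0, 16.7 and 18.4 FPKM. The 3 groups did not overlap on the normalised counts, with log2 fold changes against unstimulated B cells of 0.25 for LPS (SE 0.08, adjusted p = 0.0261) and -0.55 for IL-4+anti-CD40 (SE 0.14, adjusted p = 0.00723, both edgeR). The rise with LPS lost its call with total counts and without LPS replicate 1 or 2, and the fall with IL-4+anti-CD40 lost it when replicates 3 and 4 alone stood for that group (-0.29, adjusted p = 0.0515, edgeR). With DSF, Aim2 was at 45.0, 41.0, 43.9 and 42.6 FPKM in LPS-stimulated B cells and at 24.9, 26.1, 27.8 and 27.1 FPKM under IL-4+anti-CD40. These levels exceeded those of every library with the stimulus and vehicle, and the log2 fold changes were close, at 0.74 (SE 0.05, adjusted p = 2.62e-12) and 0.80 (SE 0.12, adjusted p = 0.000166, both edgeR). In the order of means, IL-4+anti-CD40+DSF and LPS were neighbours whose difference did not pass the test (adjusted p = 0.896, edgeR), and all other neighbours differed.

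Pycard (ENSMUSG00000030793, chromosome 7, 127989708 to 127993867, minus strand) encodes the adaptor ASC, which polymerises into a single speck per cell. Unlike the sensors it was highest without a stimulus, at 3.78, 3.25, 4.85 and 5.08 FPKM. It was at 2.27, 2.06, 2.04 and 2.31 FPKM with LPS and at 1.15, 1.18, 0.940 and 1.10 FPKM with IL-4+anti-CD40. No library of one group reached into another, and the falls were 0.96 on the log2 scale for LPS (SE 0.16, adjusted p = 0.000848) and 1.94 for IL-4+anti-CD40 (SE 0.18, adjusted p = 2.74e-05, both edgeR). With DSF, Pycard was at 2.53, 2.80, 2.64 and 2.80 FPKM in LPS-stimulated B cells and at 1.94, 1.52, 2.29 and 1.96 FPKM under IL-4+anti-CD40. Both groups lay above their controls, by log2 fold changes of 0.34 (SE 0.10, adjusted p = 0.00459) and 0.80 (SE 0.14, adjusted p = 0.00051, both edgeR), and both stayed below unstimulated B cells, with falls against them that passed the test (adjusted p = 0.00444 and 0.000558, edgeR). Its 3942 counts over the 20 libraries compare with 84 for Gm45205, which overlaps it on the opposite strand. Among neighbours in the order of means, unstimulated, LPS+DSF, LPS, IL-4+anti-CD40+DSF and IL-4+anti-CD40, only LPS and IL-4+anti-CD40+DSF did not differ detectably (adjusted p = 0.214, edgeR).

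Casp1 (ENSMUSG00000025888, chromosome 9, 5298517 to 5307265, plus strand) encodes the inflammatory caspase that the sensors recruit. It was at 28.9, 28.1, 33.5 and 30.3 FPKM in unstimulated B cells and at 36.9, 36.0, 33.1 and 33.7 FPKM with LPS. These groups overlapped, and the rise of 0.22 on the log2 scale (SE 0.074, adjusted p = 0.0258, edgeR) became 0.00 with total counts and lost its call with all genes with any count, with all 20 libraries in one fit and without LPS replicate 1 or 2. With IL-4+anti-CD40 the level was 15.3, 14.3, 19.2 and 22.4 FPKM, below every unstimulated library (log2 fold change -0.74, SE 0.14, adjusted p = 0.00172, edgeR). DSF brought Casp1 to 49.3, 51.8, 54.7 and 55.0 FPKM with LPS and to 33.8, 33.1, 35.0 and 34.2 FPKM with IL-4+anti-CD40. The rises of 0.61 (SE 0.05, adjusted p = 7.9e-11) and 0.92 (SE 0.13, adjusted p = 7.04e-05, both edgeR) left no overlap with the stimulus and vehicle. With IL-4+anti-CD40 and DSF the level was above that of unstimulated B cells by 0.18 (adjusted p = 0.0419, edgeR), and it did not differ detectably from LPS with vehicle (adjusted p = 0.42, edgeR), its upper neighbour in the order of means.

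Casp4 (ENSMUSG00000033538, chromosome 9, 5308828 to 5336783, plus strand) encodes caspase-11, the sensor and protease of the non-canonical inflammasome, and lies directly beside Casp1. Unstimulated libraries were at 10.8, 10.5, 6.84 and 6.43 FPKM, LPS libraries at 49.0, 51.4, 48.2 and 45.8 FPKM and IL-4+anti-CD40 libraries at 15.9, 14.6, 18.2 and 20.2 FPKM. None of these groups overlapped. The log2 fold change was 2.51 with LPS (SE 0.17, adjusted p = 5.29e-06), the largest of the 8 genes in that comparison, and 1.02 under IL-4+anti-CD40 (SE 0.18, adjusted p = 0.00111, both edgeR). With DSF, Casp4 was at 62.7, 54.3, 59.1 and 60.3 FPKM in LPS-stimulated B cells and at 22.8, 24.4, 28.6 and 27.5 FPKM under IL-4+anti-CD40. These were modest further rises of 0.30 (SE 0.05, adjusted p = 3.23e-06) and 0.56 (SE 0.11, adjusted p = 0.000848, both edgeR). Casp4 was the only gene of the 8 for which every neighbouring pair of groups in the order of means differed, from 59.1 FPKM with LPS+DSF through 48.6 with LPS, 25.8 with IL-4+anti-CD40+DSF and 17.3 with IL-4+anti-CD40 down to 8.64 FPKM without a stimulus.

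The promoter of Casp4 is shown because this gene rose most with LPS. The 250 bases before its first RefSeq start (GRCm38.p6, plus strand, chr9:5308599-5308848) are printed with the NF-κB-type letters GGG and TTTCC, with any 2 bases between them, in capitals on either strand.
Casp4: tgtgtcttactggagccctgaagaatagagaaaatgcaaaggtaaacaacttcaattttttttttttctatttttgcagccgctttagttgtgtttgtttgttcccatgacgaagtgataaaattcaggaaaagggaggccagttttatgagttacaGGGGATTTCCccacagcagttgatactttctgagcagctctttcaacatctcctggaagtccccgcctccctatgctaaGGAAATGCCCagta
The matches begin 93 bases before the start on the strand of the gene and 14 bases before it on the other strand. The second match lies within the annotated gene, which begins at 5308828, before the RefSeq start at 5308849. Such a match occurred in 1.63% of the 32851 RefSeq promoter windows of 300 bases (250 before and 50 after a start). RefSeq windows were matched for 7 of the 8 genes, all but Gsdmd, 9 windows in all, and the 2 windows of Casp4 were the ones with these letters. None of the 9 held the interferon-response-type letters GAAA and GAAA with 2 bases between them (3.44% of all windows), the STAT-type letters TTC and GAA with 3 bases between them (8.3%) or the AP-1-type letters TGANTCA (7.81%). The STAT6-type letters TTC and GAA with 4 bases between them, found in 6.95% of all windows, occurred in 1 of 2 windows of Nlrp3 and in that of Il18. As IL-4 acts through STAT6, they are printed in capitals with their surroundings, at chr11:59542544-59542593 and chr9:50554634-50554683 on the plus strand of the same build.
Nlrp3: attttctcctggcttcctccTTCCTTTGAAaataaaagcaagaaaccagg
Il18: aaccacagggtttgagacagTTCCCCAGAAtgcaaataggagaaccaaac
The Nlrp3 stretch lies within the annotated gene, before the start of its shorter transcript. These are matches of letters, not tested binding sites.

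Gsdmd (ENSMUSG00000022575, chromosome 15, 75862327 to 75867408, plus strand) encodes the pore-forming protein itself and moved least. Its level was 21.1, 22.1, 29.1 and 30.8 FPKM in unstimulated B cells, 32.9, 33.6, 30.4 and 29.3 FPKM with LPS, and 21.2, 21.5, 22.1 and 23.8 FPKM with IL-4+anti-CD40. Of the unstimulated libraries, replicate 4 lay within the range of LPS and replicate 2 within that of IL-4+anti-CD40. With the 8 libraries of each comparison neither stimulus passed the test (log2 fold changes of 0.30 and -0.20, adjusted p = 0.0823 and 0.226, edgeR), but these calls depended on the fit. LPS passed with all 20 libraries in one fit (0.30, adjusted p = 0.0118), without unstimulated replicate 4 (0.41, adjusted p = 0.0186, both edgeR) and with DESeq2 (0.33, adjusted p = 0.0421). IL-4+anti-CD40 passed with all 20 libraries (-0.25, adjusted p = 0.0304) and with total counts (-0.345, adjusted p = 0.0377, both edgeR). LPS libraries were nevertheless above IL-4+anti-CD40 libraries without overlap (0.56, SE 0.06, adjusted p = 1.9e-05, edgeR). With DSF the level was 31.0, 27.6, 28.8 and 28.2 FPKM in LPS-stimulated and 18.7, 20.1, 20.3 and 19.0 FPKM under IL-4+anti-CD40. The change was -0.11 with LPS (SE 0.05, adjusted p = 0.064), where the groups overlapped, and -0.20 under IL-4+anti-CD40 (SE 0.06, adjusted p = 0.0138, both edgeR), where they did not. Without LPS replicate 3, LPS replicate 4 or LPS+DSF replicate 1, the first of these passed the test as well (-0.15, -0.17 and -0.15). It also passed with total counts (-0.32, adjusted p = 1.02e-05) and with all genes with any count (-0.17, adjusted p = 0.00382, both edgeR). The second did not pass with all 20 libraries in one fit (-0.14, adjusted p = 0.249) or when replicates 1 and 2 alone stood for IL-4+anti-CD40 (-0.14, adjusted p = 0.0795, both edgeR). The highest group mean, 31.6 FPKM with LPS, was 1.62 times the lowest, compared with 13.8 times for Il18. The order was LPS, LPS+DSF, unstimulated, IL-4+anti-CD40 and IL-4+anti-CD40+DSF, and only the last pair of neighbours differed beyond the spread.

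Ninj1 (ENSMUSG00000037966, chromosome 13, 49187485 to 49196244, plus strand) encodes the membrane protein that ruptures dying cells after pore formation. DSF raised it more than any other of the 8 genes in LPS-stimulated B cells, from 19.8, 21.1, 22.1 and 21.1 FPKM to 60.9, 69.3, 69.9 and 69.8 FPKM (log2 fold change 1.70, SE 0.05, adjusted p = 2.39e-19, edgeR). Under IL-4+anti-CD40 it went from 24.5, 24.4, 30.7 and 36.6 FPKM to 66.4, 67.4, 74.3 and 70.5 FPKM (1.24, SE 0.12, adjusted p = 6.39e-06, edgeR). Every library with DSF was above every library without it, and both DSF groups reached nearly the same level, with no detectable difference (adjusted p = 0.783, edgeR). Unstimulated libraries were at 32.7, 29.5, 5.70 and 8.51 FPKM, the largest SD of the 8 genes in any group. The comparison of stimulated with unstimulated B cells therefore depended on which pair was used. LPS gave a log2 fold change of 0.16 with all 4 (SE 0.49, adjusted p = 0.793), of -0.54 against replicates 1 and 2 alone (adjusted p = 9.67e-08) and of 1.60 against replicates 3 and 4 alone (adjusted p = 4.25e-11, all edgeR). For IL-4+anti-CD40 the same values were 0.63 (adjusted p = 0.293), -0.092 (adjusted p = 0.656) and 2.06 (adjusted p = 4.09e-05, all edgeR). These restrictions to pairs were chosen after seeing the data. The order of its means was IL-4+anti-CD40+DSF, LPS+DSF, IL-4+anti-CD40, LPS and unstimulated, and neither the first nor the last pair of neighbours differed detectably.

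Il18 (ENSMUSG00000039217, chromosome 9, 50554827 to 50581840, plus strand) encodes the pro-cytokine that caspase-1 matures. It overlaps Bco2 and Tex12 on the opposite strand, with 482 and 63 counts against 1283 for Il18, and as the strand setting of the counting is not given in the sources used here, its counts are uncertain by what these genes may add. Unstimulated libraries were at 2.18, 2.09, 4.46 and 4.89 FPKM and LPS libraries at 5.34, 6.79, 8.20 and 5.53 FPKM. All LPS libraries were higher (log2 fold change 0.94, SE 0.32, adjusted p = 0.029, edgeR), but the call was lost without LPS replicate 2 or 3 or unstimulated replicate 1 (adjusted p of 0.0513 to 0.079). With IL-4+anti-CD40 the level was 0.681, 0.277, 0.307 and 0.606 FPKM, from 6 to 15 counts per library. This was the largest fall of the 8 genes, -2.84 on the log2 scale (SE 0.43, adjusted p = 0.000435, edgeR), in a comparison where the summed macrophage markers were 104 to 120 FPKM against 350 to 464 in unstimulated libraries. In the LPS libraries, where Il18 was higher, the same markers were at 103 to 119 FPKM, and their part in these differences was not tested. With DSF, Il18 was at 4.31, 2.76, 3.55 and 5.85 FPKM in LPS-stimulated and at 0.434, 0.748, 0.839 and 0.613 FPKM under IL-4+anti-CD40. DSF lowered it with LPS (-0.63, SE 0.18, adjusted p = 0.00362), with overlapping groups, and not detectably under IL-4+anti-CD40 (0.48, SE 0.37, adjusted p = 0.286, both edgeR). The fall with LPS lost its call with all 20 libraries in one fit (-0.65, adjusted p = 0.065, edgeR). In the order of means, LPS, LPS+DSF, unstimulated, IL-4+anti-CD40+DSF and IL-4+anti-CD40, the steps from LPS to LPS+DSF and from unstimulated to IL-4+anti-CD40+DSF passed the test.

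Whether DSF acted differently under the stimuli was tested as an interaction over 16 libraries. Of the 8 genes 1 passed, Ninj1, whose rise was larger with LPS by 0.46 on the log2 scale (SE 0.14, adjusted p = 0.0289, edgeR), where 14.9% of 15130 genes passed. Its levels under DSF did not differ detectably, whereas its level with LPS and vehicle was below that with IL-4+anti-CD40 and vehicle. The call was lost in 9 of the 16 fits that left out 1 library (adjusted p of 0.0503 to 0.0617) and with total counts (adjusted p = 0.0567, edgeR). The other differences were -1.12 for Il18 (adjusted p = 0.101), -0.47 for Pycard (adjusted p = 0.0565), -0.31 for Casp1 (adjusted p = 0.131) and -0.55 for Nlrp3 (adjusted p = 0.329, all edgeR), so the calls on Il18 and Gsdmd under 1 stimulus only are not shown to differ from the other stimulus (Gsdmd 0.088, adjusted p = 0.517). With DESeq2, Pycard and Il18 passed as well (adjusted p = 0.0366 and 0.0432), and Pycard also did with total counts (-0.53, adjusted p = 0.0288, edgeR).

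In experiment 2, with 1 library per condition, there is no replicate check, and the intervals given are exact 95% binomial intervals of the counts that cover counting error only. Aim2 had 1407 counts with LPS, 3078 with LPS and DSF and 2106 with LPS and ibrutinib, and 1233, 2219 and 2195 with IL-4+anti-CD40 and vehicle, with DSF and with ibrutinib. The log2 ratio of DSF to vehicle, after TMM scaling, was 1.23 with LPS (interval 1.14 to 1.32) and 1.22 with IL-4+anti-CD40 (1.12 to 1.33). For ibrutinib it was 0.19 (0.10 to 0.29) and 0.33 (0.23 to 0.43). Pycard, with 73 and 66 counts under the stimuli with vehicle, had 170 and 146 with DSF, ratios of 1.30 and 1.5, against 0.36 and 0.15 with ibrutinib. With DSF it was at 2.59 and 2.69 FPKM, not below the 2.45 FPKM of the unstimulated library, unlike in experiment 1. Ninj1 differed in sign between the inhibitors, with log2 ratios of 0.56 and 0.31 for DSF and -0.51 and -0.53 for ibrutinib, and so did Casp4, at 0.31 and 0.44 for DSF and -0.34 and -0.19 for ibrutinib.

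Gsdmd was lower with DSF in experiment 2 as well, at 578 counts against 925 with LPS (log2 ratio -0.57, interval -0.73 to -0.42) and 567 against 942 with IL-4+anti-CD40 (-0.35, -0.51 to -0.20). With ibrutinib its ratios were 0.02 and 0.19. Directly against ibrutinib, DSF was lower by 0.59 and 0.54 for Gsdmd and higher by 1.04 and 0.89 for Aim2, under LPS and IL-4+anti-CD40. Nlrp3 rested on few counts, 46 with LPS, 109 with DSF and 134 with ibrutinib, and it was higher with both inhibitors under LPS (1.32 and 1.12). Under IL-4+anti-CD40 it had 39 counts, 27 with DSF and 94 with ibrutinib, and the DSF ratio of -0.14 (interval -0.92 to 0.59) spanned 0, unlike the rise in experiment 1. Il18 had between 21 and 48 counts per library. Its DSF ratio was 0.14 with LPS (-0.58 to 0.87), whereas it was 1.49 with IL-4+anti-CD40 (0.80 to 2.39).

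By a 2-fold limit, 3 of the 8 genes were higher with DSF under LPS (Nlrp3, Pycard and Aim2) and 3 under IL-4+anti-CD40 (Pycard, Il18 and Aim2), where 20.3% and 21.9% of 14275 genes were. With total counts as the scaling, 1 remained under LPS, and the ratio of Casp4 there came to 0.002. None was lower by the 2-fold limit, compared with 19.5% and 20.3% of all genes. With ibrutinib 1 gene, Nlrp3 under LPS, was higher by 2-fold (2.81% of all genes) and none was higher under IL-4+anti-CD40 (2.23%) or lower under either (2.47% and 1.69%). The stimuli themselves moved 2 of the 8 by 2-fold with LPS, Casp4 up (1846 against 1075 counts, log2 ratio 1.02) and Pycard down (73 against 203 counts, -1.21), where 8.62% and 9.88% of genes did so. With IL-4+anti-CD40, Pycard alone did so (66 counts, -1.37), where 10.7% of genes were higher and 13.7% lower. Other genes called higher with LPS in experiment 1 were not higher here. Casp1 was lower with LPS (log2 ratio -0.27, interval -0.42 to -0.13), as was Aim2 (-0.12, -0.22 to -0.02). The intervals of Nlrp3 (0.01, -0.59 to 0.605) and Il18 (0.15, -0.56 to 0.88) spanned 0. The single unstimulated library of experiment 2 had 1035 counts of Ninj1, or 30.3 FPKM, near the level of unstimulated replicates 1 and 2 of experiment 1.

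**Figure D3:**
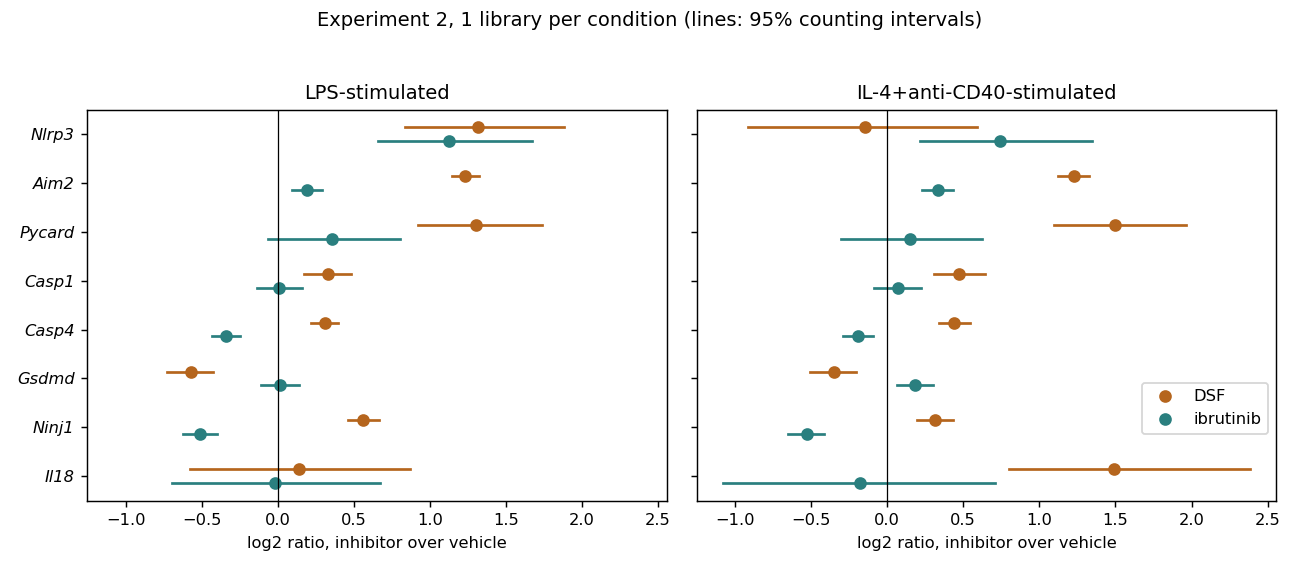
Log2 ratio of each inhibitor to vehicle (x axis) for the 8 genes (y axis) in experiment 2, with 95% counting intervals as lines and 1 library per condition. Aim2, Pycard, Casp1, Casp4 and Ninj1 are higher with DSF than with ibrutinib under both stimuli, and Gsdmd is lower.

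Beyond the 8 genes, 118 genes of the pathway and of neighbouring cell death pathways were followed in 10 lists. With LPS 45 of 102 tested rose and 34 fell (median log2 fold change 0.20, all genes -0.05), with IL-4+anti-CD40 24 of 101 rose and 39 fell (-0.25, all genes -0.04), and the shares of all genes called are those given above. LPS exceeded IL-4+anti-CD40 for 55 of 102 and was below it for 14. The clearest group was that of guanylate-binding proteins and IRG GTPases, which break open pathogen vacuoles and bacteria and so expose LPS to caspase-11. With LPS 13 of 14 rose, at a median of 2.81, whereas with IL-4+anti-CD40 none of 12 rose and 6 fell, at a median of -0.64. Gbp7, for example, rose by 2.88 (adjusted p = 3.85e-05) under LPS but fell by 1.67 under the other stimulus (adjusted p = 0.00353, both edgeR).

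Of 10 transcription factors that drive inflammasome genes, 8 rose and 1 fell with LPS (median 1.53), and 3 rose and 2 fell with the other stimulus. Irf7 (log2 fold change 4.07) and Stat2 (2.45) were among those that rose with LPS, although Irf7 overlaps the highly counted Phrf1 on the opposite strand. Of 11 other sensors tested with LPS, 5 rose and 6 fell, among them the nucleic acid sensor Zbp1, up by 4.10 (adjusted p = 0.000195), and Ifi204, up by 2.84 (adjusted p = 2.64e-08, both edgeR). In the IL-1 family, Il1rn, the receptor antagonist, rose by 4.85, Il1a by 3.29 and Il1b by 3.06 with LPS. Il1b and Il1rn again split the unstimulated libraries, with 815, 808, 57 and 57 counts for Il1b and 158, 166, 15 and 18 for Il1rn.

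The other caspases mostly fell, 5 of 6 under LPS and 4 of 6 under IL-4+anti-CD40. Casp6, an executioner caspase, went in opposite directions. It had 403, 392, 444 and 468 counts without a stimulus, 100, 133, 135 and 121 under LPS, and 2109, 2045, 2083 and 1795 under IL-4+anti-CD40. The groups were far apart, with log2 fold changes of -1.51 (adjusted p = 7.28e-05) and 2.50 (adjusted p = 1.12e-06, both edgeR). Casp9, the initiator of the mitochondrial pathway, fell under both, by 2.55 and 2.45. Among other gasdermins Gsdme, which caspase-3 cleaves, rose by 1.12 and 1.31 (adjusted p = 0.00549 and 0.00226, edgeR), but it overlaps Mpp6 on the opposite strand, with 23478 counts against 5044. In both comparisons Gsdmc4 was also called higher, at 4 to 23 counts per library.

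DSF raised 34 and lowered 39 of 101 pathway genes in LPS-stimulated B cells (median -0.03, all genes 0.00), and raised 37 and lowered 23 of 101 under IL-4+anti-CD40 (median 0.16, all genes -0.01). Among all genes 35.1% and 36% were called under LPS, and 30.1% and 31.6% under IL-4+anti-CD40. In experiment 2 the median log2 ratio of 100 pathway genes with DSF was -0.35 under LPS and -0.44 under IL-4+anti-CD40 (all genes -0.04 and -0.01). By the 2-fold limit, 9 and 11 of them were higher, where 20.3% and 21.9% of all genes were. By the same limit 32 and 34 were lower, where 19.5% and 20.3% of all genes were. The largest change belonged to P2rx7, the ATP-gated channel whose opening triggers NLRP3. P2rx7 had 36, 21, 62 and 36 counts with LPS and 614, 551, 636 and 733 with DSF in addition, and 33, 26, 71 and 84 counts with IL-4+anti-CD40 and 548, 673, 708 and 854 with DSF. No library without DSF came near those with it, and unstimulated libraries had 76, 105, 146 and 133 counts. The log2 fold changes were 4.30 (SE 0.17, adjusted p = 1.69e-17) and 3.66 (SE 0.29, adjusted p = 2.13e-06, both edgeR), and both held under all alternatives run. In experiment 2, P2rx7 went from 19 to 2326 counts with LPS and from 7 to 1489 with IL-4+anti-CD40 when DSF was added, whereas it had 21 and 18 counts with ibrutinib.

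**Figure D4:**
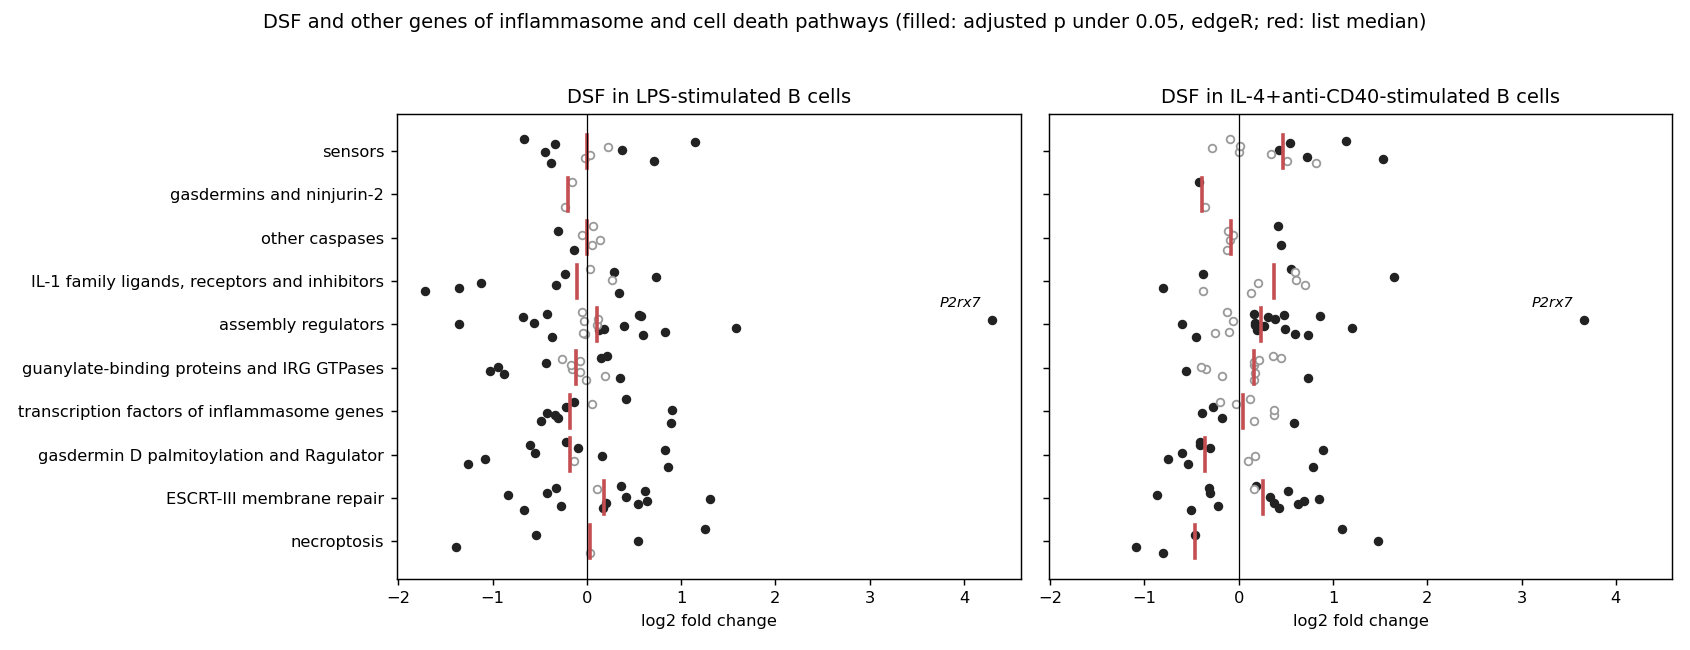
Log2 fold change with DSF (x axis) of the tested genes in each of 10 pathway lists (y axis), in LPS-stimulated (left) and IL-4+anti-CD40-stimulated B cells (right); filled points passed an adjusted p of 0.05 in edgeR and red bars are list medians. P2rx7 lies apart at 4.30 and 3.66, whereas every list median lies between -0.46 and 0.47.

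Other groups moved in both directions with DSF. ESCRT-III genes, whose products patch gasdermin pores, were higher in 8 and lower in 5 of 14 under each stimulus, with Chmp4b up by 0.63 and 0.69 and Chmp5 up by 0.42 and 0.33, where the shares of all genes were again 35.1% higher and 36% lower under LPS and 30.1% and 31.6% under IL-4+anti-CD40. Of the genes for gasdermin D palmitoylation and the Ragulator complex, 6 of 10 fell under each stimulus (36% and 31.6% of all genes), such as Lamtor2 (-1.26 and -0.54) and Lamtor4 (-1.08 and -0.75), while Rragc rose by 0.83 and 0.89. In the necroptosis list the pore-forming Mlkl rose by 0.54 and 1.48 and the adaptor Fadd fell by 1.39 and 1.09. In experiment 2 Fadd was likewise lower with DSF (-2.23 and -1.80), but Mlkl was not higher, with 37 against 54 counts under LPS (log2 ratio -0.425) and 25 against 36 under IL-4+anti-CD40 (-0.14). Cflar, an inhibitor of caspase-8, fell with DSF under IL-4+anti-CD40 by 0.81 (adjusted p = 8.35e-07) but stood at 0.036 under LPS (adjusted p = 0.422), a difference that passed the interaction test (adjusted p = 2.05e-08, all edgeR). In experiment 2, however, Cflar was lower with DSF under LPS too, at 2213 against 5727 counts (log2 ratio -1.27), besides 1710 against 10761 under IL-4+anti-CD40 (-2.27). Il1b fell with DSF under LPS by 1.12 (adjusted p = 1.53e-14) but stood at 0.21 under IL-4+anti-CD40 (adjusted p = 0.63), and the interaction passed as well (-1.35, adjusted p = 0.0102, all edgeR). The fall under LPS lost its call with all 20 libraries in one fit (adjusted p = 0.0739, edgeR). In experiment 2 the log2 ratios of Il1b with DSF were -2.04 and -1.65. Gbp7 had a log2 fold change of -0.94 with DSF under LPS in experiment 1. Under IL-4+anti-CD40 its means there were 1.16 FPKM with vehicle and 0.89 FPKM with DSF. The log2 ratios of Gbp7 with DSF in experiment 2 were larger, at -2.22 and -1.78.

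Over the 20 libraries of experiment 1, Casp1 and Aim2 had the most alike patterns among the 8 genes, with a Pearson's r of 0.986 between their log2 CPM, and each was the nearest gene of the other. Gsdmd was closest to H2-T23 (0.976), Nmral1 and Tlr3, and Il18 to Fam111a (0.967), Tspo and Epsti1. Casp4 had Stx11 (0.987) and Gca (0.985) among its nearest genes, and Ninj1 was closest to Trp53inp2 (0.989), Tle1 and Emp1. For Nlrp3 the nearest genes were Slpi (0.965), Prnp and Anxa7, and for Pycard they were Tmsb10 (0.978), Gmfg and H3f3a. Casp1 and Aim2 shared Hivep2 as their next neighbour (0.985 and 0.981), followed by Dusp1 and Sh3glb1. Within the 8, Gsdmd and Il18 followed at 0.889, while Ninj1 correlated at -0.395 with Gsdmd. These values describe 5 groups of 4 libraries, which are not independent points.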

How the data were processed

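Messenger RNA of splenic B cells was sequenced in 20 libraries of experiment 1 and 7 of experiment 2. The counts per gene were deposited by the authors without normalization, after mapping to mm10 with HISAT2 (2.0.5) and counting with featureCounts (1.5.0-p3), per the submitters' processing notes. The FPKM were deposited by the authors beside them and served for levels. The annotation release and the strand setting are not given in the sources used here. Gene positions were those of the files and equalled GENCODE M21 (GRCm38) for all 8 genes, and promoter sequences came from RefSeq (GRCm38.p6).

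The 8 genes, the 10 pathway lists and the 6 marker lists were chosen with earlier results of these data known. Counts of the 2 groups compared (4 libraries each) were tested with edgeR 4.0.16 in R 4.3.3 (quasi-likelihood, TMM, filterByExpr, two-sided), and p-values were adjusted over all genes tested (Benjamini-Hochberg, 0.05). SEs were taken from the fold change and its F statistic. The difference of the DSF effect was an interaction term over 16 libraries. Neighbours in the order of levels were tested by the same fit of each pair. Each script was tested on simulated data first. Replicate pairs always differed beyond sampling noise (chi-square per gene 2.86 to 90.7 over 30 pairs). Experiment 2 was compared over genes averaging 10 counts or more as log2 ratios (TMM, prior count 2), with no test. Named pathway genes were up to 3 per list with the largest called change and no library of the higher group under 10 counts, and nearest genes were the 3 with the highest Pearson's r among those averaging 50 counts or more, of which some are not reported here. Alternatives were DESeq2 1.42.0, limma 3.58.1 on log2(FPKM + 0.1) or log2(FPKM + 1), total counts, DESeq2's size factors, other filters, all 20 libraries in one fit, a replicate block, and leaving out each library. Restricting unstimulated or IL-4+anti-CD40 libraries to replicates 1 and 2 or 3 and 4 was chosen after seeing the data.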

Additional observations from a re-analysis of the deposited data

Results flagged for a closer look

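Ninj1 in LPS+DSF replicate 1, at 60.9 FPKM, stood below the other 3 libraries of its group (69.3 to 69.9 FPKM) by more than Dixon's limit for 4 values allows. It was 1 of 40 groups of 4 values tested, where chance alone marks about 1 in 20. Without this library the rise of Ninj1 with DSF kept its direction and call.

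The effect of DSF on Ninj1 differed between the stimuli by 0.46 on the log2 scale, larger with LPS, in the interaction test (adjusted p = 0.0289, edgeR). Every library with DSF was above every library with the same stimulus and vehicle under both stimuli, and the call on the difference was lost in 9 of 16 fits that left out 1 library.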

How the results depend on the processing

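In all, 230 results were recomputed, giving 3295 values under alternatives. Of these 3104 kept direction and side of the threshold (or a count within 1.5 times), 106 lost a call, 22 gained one, 53 moved and 10 changed sign. For the 29 named pathway genes no called value of 101 changed sign, and 65 of 1907 values lost the call.

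With total counts, genes of the 8 called higher with LPS fell to 1 and those called lower with DSF under LPS rose to 2. Casp1 with LPS came to 0.00 and Ninj1 to -0.09, pathway genes higher with IL-4+anti-CD40 numbered 14 and those lower with LPS than with IL-4+anti-CD40 numbered 24. In experiment 2 total counts left 0 genes of the 8 at 2-fold higher with LPS and 1 with DSF under LPS. With all genes with any count, 2 of the 8 were called lower with DSF under LPS and 9 pathway genes lower with LPS than with IL-4+anti-CD40. With all 20 libraries in one fit, DSF under LPS gave 3 higher and 0 lower, DSF under IL-4+anti-CD40 gave 0 lower, and LPS against IL-4+anti-CD40 gave 0 of the 8 and 9 pathway genes lower. DESeq2 gave 3 genes with a different DSF effect. The replicate block left 3 of the 8 called higher with LPS and moved no other count of calls by over 1.5 times. The numbers do not show paired libraries, as deviations of same-numbered libraries from their group means correlated between -0.056 and 0.169. The cause of these changes was not tested.

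With unstimulated replicates 1 and 2 only, 2 of the 8 were lower with LPS, Ninj1 came to -0.54 with LPS, and under IL-4+anti-CD40 Ninj1 came to -0.092 and Gsdmd to 0.041. With replicates 3 and 4 only, 2 were higher with IL-4+anti-CD40 and Nlrp3 came to 0.34. With IL-4+anti-CD40 replicates 1 and 2 only, none of the 8 was lower with DSF (0) or with LPS against that stimulus (0), and with its replicates 3 and 4 only Nlrp3 came to 0.016 against unstimulated B cells.

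Leaving out 1 library gave 1 to 5 genes of the 8 higher with LPS, 1 to 2 lower with DSF under LPS, 0 to 1 lower with LPS than with IL-4+anti-CD40, 9 to 14 such pathway genes, and 0 to 3 with a different DSF effect. The log2 fold change of Ninj1 with LPS ranged from -0.14 to 0.56, and the difference of the DSF effect on Aim2 from -0.18 to 0.027. Depth limits Il18 most, with 6 to 19 counts per library under IL-4+anti-CD40 with or without DSF.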
